A study of Mus musculus with 6 samples.

Results

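The mouse Slc25 genes encode the mitochondrial carriers, the largest family of transport proteins of the inner mitochondrial membrane. They were taken as every row of the deposited kidney table whose gene symbol is Slc25a followed by a number, which gave 47 of its 23219 symbols. The choice rests on the gene name alone and on no measured value. A mitochondrial carrier is built from tandem repeats of paired membrane helices, and it typically swaps one small molecule of the mitochondrial matrix for another of the cytosol. Through these exchanges ATP leaves the matrix and ADP, phosphate, citrate, malate, aspartate, glutathione, acylcarnitines, iron and cofactors cross a membrane that is otherwise closed to them. Proximal tubule cells of the kidney are rich in mitochondria and draw on fatty acid oxidation to power reabsorption, and at this fetal stage nephrons are still forming beside maturing ones.

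Total RNA, depleted of ribosomal RNA, was sequenced from whole mouse kidneys at embryonic day 17. The mutant group was Six2Cre Mta2flx/flx (3 libraries, numbered 6, 8 and 9 by the labels), and the control group was Mta2flx/flx without Cre (3 libraries, numbered 5, 7 and 11). Mta2 belongs to NuRD, a complex that remodels nucleosomes and removes acetyl groups from histones, and both groups carried floxed alleles of it. Six2 Cre acts in nephron progenitors and so reaches the nephron epithelium, while the collecting duct, most stroma and the endothelium descend from cells without it. The labels name neither strain nor sex, nor do they say that the kidneys of a group came from separate embryos, so p-values measure the spread between these libraries only.

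Depth per library was 794 to 1235 megabases, summed over genes, and the unit used below (BPM) is the share of a library's covered bases that fell on a gene, times 1000000. Covered bases are not read counts, so read numbers are unknown and no counting interval is given. Mta2 itself was at 139.6, 189 and 146 BPM in mutant kidneys 6, 8 and 9, against 219.7, 198 and 210.5 BPM in control kidneys 5, 7 and 11. Its mean was 158 ± 26.6 BPM in mutant kidneys and 209 ± 11.0 BPM in control kidneys (SD, n = 3 each), with no overlap, a log2 fold change of -0.41 and a limma adjusted p of 0.887 (exact permutation p = 0.1, the smallest that 3 against 3 allows). Cells outside the Six2 lineage keep Mta2, and the deposited gene totals do not separate the floxed exons. Summed markers of proximal tubule, loop of Henle, distal tubule, collecting duct, podocyte, stroma and endothelium were all present in each library, while brown fat markers summed to 2.59 BPM or less and adrenal cortex markers to 4.46 BPM or less. Control kidney 11 stood apart with 2.30% of its coverage on Lars2 and 1.17% on the RNA gene Rmrp, and mutant kidney 6 stood apart on the first principal component, at 70.3 against -26.2 to -4.38 for the other 5 libraries. Mutant kidney 9 stood apart in its summed muscle markers, at 348 BPM against 8.07 to 17.9 BPM in the other 5.

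The sequences upstream of 4 members are given first, because 3 of these genes were the members whose mutant values all lay above the control values, and the other carries a motif tied to mitochondrial genes. They are RefSeq promoter windows (build GRCm38.p6), cut to the bases before the start site that lie outside every annotated exon, and read 5′ to 3′ on the gene's strand. Capitals mark the pentamer CCAAT, bound by NF-Y, or its reverse complement ATTGG in Slc25a21 and Slc25a29, and a match to GCGCA, any base and GCGC in a row, the site of nuclear respiratory factor 1 (NRF1), in either orientation in Slc25a3. Slc25a14 lies on the plus strand of the X chromosome, and its bases at chrX:48623198-48623412 hold neither motif. Slc25a21 lies on the minus strand and is shown at chr12:57197473-57197722. Slc25a29 lies on the minus strand and is shown at chr12:108835884-108836045, the 162-base gap between its GENCODE span and that of Slc25a47, which is transcribed the other way. Slc25a3 lies on the minus strand and is shown at chr10:91124060-91124217.
Slc25a14: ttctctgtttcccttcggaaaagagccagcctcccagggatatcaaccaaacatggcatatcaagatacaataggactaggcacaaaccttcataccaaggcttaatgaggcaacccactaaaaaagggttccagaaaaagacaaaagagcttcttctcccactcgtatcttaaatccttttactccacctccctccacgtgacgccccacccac
Slc25a21: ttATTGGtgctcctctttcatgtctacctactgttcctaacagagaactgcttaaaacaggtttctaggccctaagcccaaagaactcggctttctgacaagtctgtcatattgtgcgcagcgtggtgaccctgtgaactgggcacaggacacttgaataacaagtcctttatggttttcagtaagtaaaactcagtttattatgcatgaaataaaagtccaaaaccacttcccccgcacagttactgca
Slc25a29: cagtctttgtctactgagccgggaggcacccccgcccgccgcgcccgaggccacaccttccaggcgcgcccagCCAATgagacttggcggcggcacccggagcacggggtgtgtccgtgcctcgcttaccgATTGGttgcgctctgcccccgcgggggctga
Slc25a3: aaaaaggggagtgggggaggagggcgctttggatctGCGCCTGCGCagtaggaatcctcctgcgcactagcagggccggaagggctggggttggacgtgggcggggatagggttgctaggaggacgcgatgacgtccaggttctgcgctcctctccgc

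Of the 47 members, 36 had a window in the RefSeq promoter table, and the 250 bases before the start site were searched on both strands. That NRF1 motif was found for 2 of the 36 (Slc25a3 and Slc25a31), or 5.56%, against 4.23% of 27025 genes. CCAAT was found for 18 of the 36, or 50.0%, against 37.5% of those genes, and no motif searched is contained in another. The estrogen-related receptor motif TNAAGGTCA was in 0 of the 36 windows, against 1.30% of the genes. With the window of highest GC content taken for each gene, the median GC content was 59.8% over the 36 members and 52.8% over the 27025 genes. These matches describe letters and say nothing of binding.

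Carrier RNA was detected for most of the family. Coverage was present in all 6 libraries for 36 of the 47 members, and 1 member, Slc25a41, was at 0 in every library. Slc25a18, Slc25a31 and Slc25a54 had only a trace, each in a single library. Per kilobase of the principal transcript, the highest levels belonged to Slc25a5 (mean 242 BPM per kb, 177 to 290.2 over the 6 libraries), Slc25a4 (203, 172 to 264) and Slc25a3 (144, 116 to 179). These 3 genes supply oxidative phosphorylation with ADP and phosphate, and their neighbours in this order overlapped in range. Slc25a39, which carries glutathione, followed at 93.4 BPM per kb (81.0 to 136), Slc25a11, the oxoglutarate/malate exchanger, at 69.2 (56.2 to 80.1) and Slc25a51, which carries NAD+ in human cells, at 52.7 (39.4 to 61.4). The citrate carrier Slc25a1 averaged 44.9 BPM per kb, the peroxisomal carrier Slc25a17 averaged 41.0, the dicarboxylate carrier Slc25a10 averaged 37.2 and the aspartate/glutamate carrier Slc25a13 (citrin) averaged 33.2. In BPM, without division by length, Slc25a4 and Slc25a5 together made up 25.02% to 28.1% of the family's coverage in each library, and the leading 10 members 64.8% to 71.7%.

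**Figure D1:**
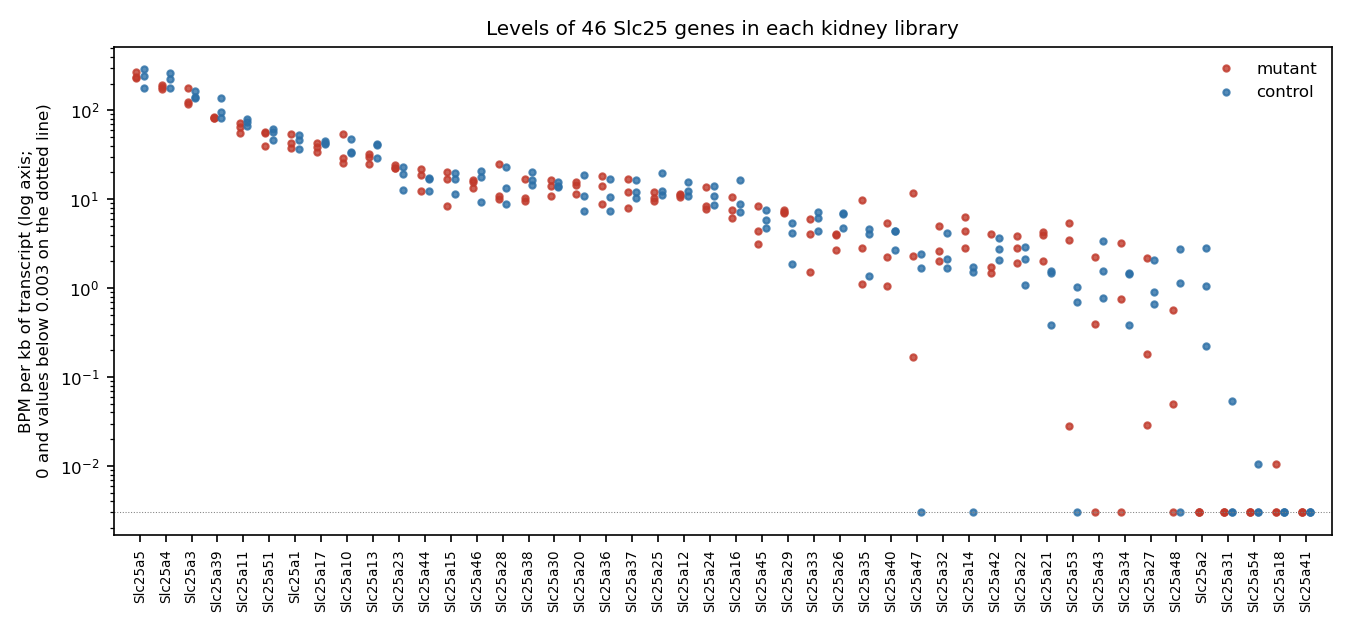
Level of 46 of the 47 Slc25 genes in BPM per kilobase of principal transcript (log axis), 1 point per kidney library, mutant left of control, with 0 drawn on the dotted line. Slc25a5, Slc25a4 and Slc25a3 lie at the top at 116 to 290.2 BPM per kb, and Slc25a2, Slc25a31, Slc25a54, Slc25a18 and Slc25a41 lie at the bottom.

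The comparison of mutant with control kidneys asks how RNA levels at embryonic day 17 differ with loss of Mta2 in nephron progenitors. Only the mutant group carried Six2Cre, so effects of Cre itself and of Mta2 loss cannot be told apart. No Slc25 gene changed past the threshold. The fit covered the 13977 genes that reached 1 BPM in 3 or more libraries, and 42 of the 47 members were among them; Slc25a2, Slc25a18, Slc25a31, Slc25a41 and Slc25a54 were too low. At a limma adjusted p of 0.05 the fit called 0 members and 0 genes of all tested (0%), and the lowest adjusted p of a member was 0.854. At an unadjusted limma p below 0.05 there were 2 members of 42, Slc25a14 and Slc25a21, both higher in mutant kidneys, beside a background of 783 genes or 5.60% of all genes in either direction, 2.90% higher and 2.70% lower in the mutant. Over the alternatives between 0 and 4 members had such a p. Groups without overlap were seen for 3 tested members higher in mutant kidneys (background 6.10%) and 1 lower (background 5.12%). All of these shares lie near the background. In whole-kidney RNA, fewer cells of a type and less RNA per cell cannot be told apart, and this holds for every value below.

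Most members nevertheless lay slightly below control. The median log2 fold change over the 42 members tested was -0.14, with 29 below 0 and 13 above, or 69.0% below, whereas over all genes tested it was 0.02 with 47.4% below 0. Among the 21 members at or above the family's median level of 31.8 BPM, 17 were below 0, or 81.0%, against 43.5% of the 7130 genes at such levels. Among the other 21 members 12 were below 0. Relative to the control mean, the median member was at 0.05, -0.23 and -0.30 in mutant kidneys 6, 8 and 9 on the log2 scale. It was at 0.01, 0.09 and -0.01 in control kidneys 5, 7 and 11, which themselves make up that control mean. The mean over the 42 members showed less, at 0.15, -0.079 and -0.17 in mutant kidneys and -0.084, 0.12 and -0.032 in control kidneys. By that measure mutant kidney 8 lay inside the control range and mutant kidney 6 above it. Without mutant kidney 9 the median over the members tested turned to 0.05, with 18 below 0 and 23 above, whereas without mutant kidney 6 it was -0.22 and without mutant kidney 8 it was -0.12. Mutant kidney 9 is the library with the high muscle markers, and their part in the median was not tested. Of the 42, 9 members were below the control mean in each mutant kidney and 4 were above it in each. This was not counted over all genes tested, so these counts have no background and are only descriptive.

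**Figure D2:**
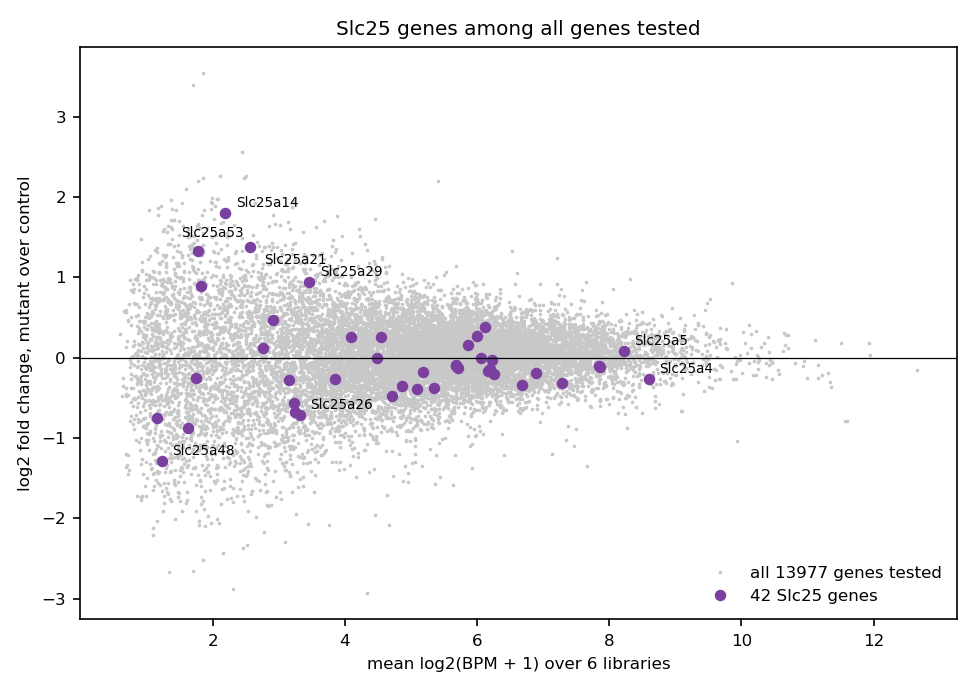
Log2 fold change of mutant over control kidneys against mean log2(BPM + 1) over the 6 libraries, for all 13977 genes tested (grey) and the 42 Slc25 genes tested (purple). The purple points lie within the grey cloud, with Slc25a14 highest at 1.80 and Slc25a48 lowest at -1.29.

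Summed over the family, coverage was 2619, 2482 and 2370 BPM in mutant kidneys 6, 8 and 9, against 2828, 2587 and 2650 BPM in control kidneys 5, 7 and 11. The mutant mean of 2490 ± 125 BPM was 92.6% of the control mean of 2688 ± 125 BPM (SD, n = 3 each), and mutant kidney 6 lay inside the control range. Beside this, the summed proximal tubule markers were at 4799 to 6781 BPM in mutant kidneys and 7930 to 9654 BPM in control kidneys, or 63.9% of control with no overlap. All 15 of these markers were below 0, led in level by the endocytic receptor Lrp2 at 1922, 3132 and 2026 BPM in mutant kidneys against 3704, 4503 and 3770 BPM in control kidneys. The marker list was chosen with earlier results of these data known, so its shared direction is no independent evidence. The podocyte sum was 832 to 948 BPM in mutant kidneys and 949.9 to 1368 BPM in control kidneys. Loop of Henle markers summed to 427 to 586 BPM in mutant and 516 to 785 BPM in control kidneys, with overlap. Of these loop of Henle markers 2 were above 0 and 3 below. Umod (log2 fold change -1.21) and Tmem72 (-1.44) were lower in mutant kidneys without overlap, and the others overlapped. Distal tubule markers summed to 231 to 283 BPM in mutant and 253 to 347 BPM in control kidneys, also with overlap. Of these distal tubule markers 1 was above 0 and 4 below. Slc12a3 (log2 fold change -1.22), Trpm6 (-1.91) and Pvalb (-1.03) were lower in mutant kidneys without overlap. Calb1 (0.91) was higher in mutant kidneys without overlap. Trpm6 and Pvalb were low, at 7.84 BPM or less in every library. None of the loop of Henle or distal tubule markers was called. Nephron progenitor markers summed to 162 to 244 BPM in mutant and 155 to 186 BPM in control kidneys. Of these progenitor markers 3 were above 0 and 2 below. Sums of collecting duct, stroma and endothelium markers overlapped too. The part of these cell types in the carrier levels was not tested.

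**Figure D3:**
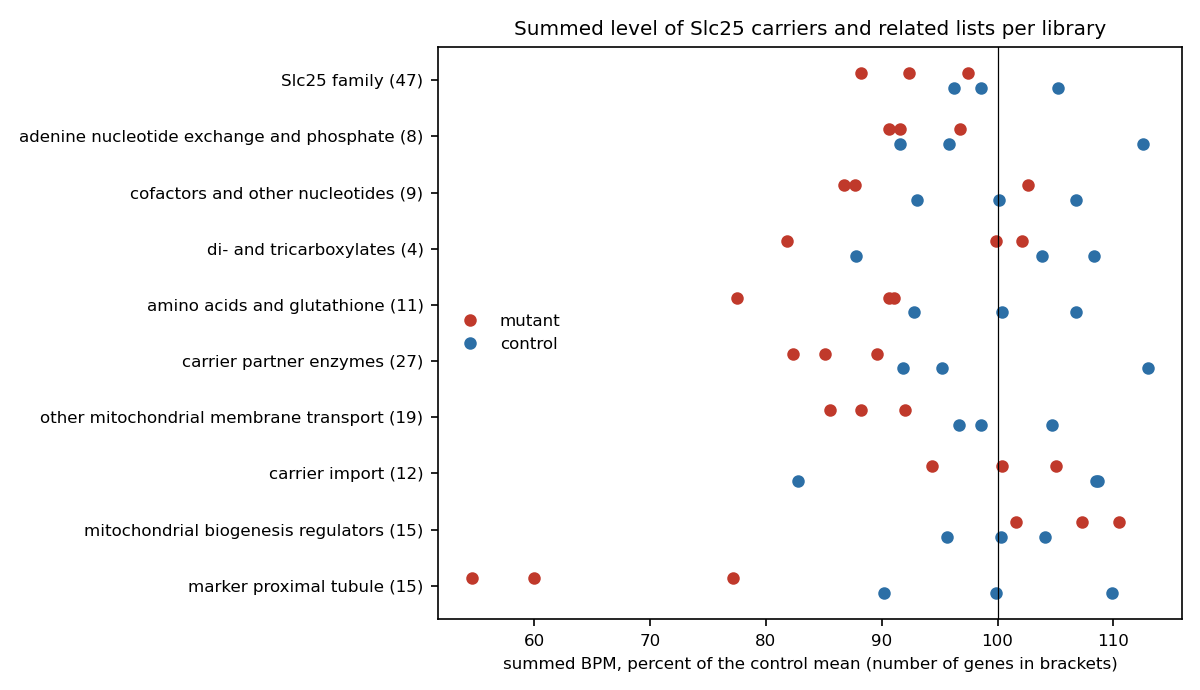
Summed BPM of the Slc25 family, of 4 of its substrate groups and of related gene lists in each kidney library, as a percent of the control mean, mutant drawn above control in each row. The mutant family sums lie at 88.2% to 97.4%, and the proximal tubule markers lie far lower, with a mutant mean of 63.9% of control.

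Adenine nucleotide and phosphate carriers set the supply of ADP and phosphate to ATP synthase. Of their 8 members 6 were tested, 2 with a fold change above 0 and 4 below (median log2 fold change -0.14). Their sum was 1004 to 1072 BPM in mutant kidneys and 1015 to 1247 BPM in control kidneys. Slc25a4, the ADP/ATP carrier of heart and muscle, was at 330.2, 372 and 352 BPM in mutant kidneys 6, 8 and 9, against 434, 343 and 509 BPM in control kidneys 5, 7 and 11. Control kidney 7 lay within the mutant range, and the log2 fold change was -0.27 (SE 0.19, limma adjusted p = 0.896; -0.42 without control kidney 7 and -0.14 without control kidney 11). Because Slc25a4 is a muscle gene, the summed muscle markers are set beside it, at 14.1, 16.6 and 348 BPM in mutant kidneys and 13.4, 17.9 and 8.07 BPM in control kidneys. Mutant kidney 9 alone had a high muscle sum, and the part of muscle RNA in the Slc25a4 level was not tested. Slc25a5, the ADP/ATP carrier of proliferating cells, was at 334, 287 and 297 BPM in mutant kidneys, against 359.8, 304 and 219.7 BPM in control kidneys. All 3 mutant kidneys lay inside its control range (log2 fold change 0.08, 95% interval -0.33 to 0.49), and the sign turned when control kidney 11 was left out. The ratio of Slc25a4 to Slc25a5 per kilobase was 0.638, 0.837 and 0.764 in mutant kidneys and 0.777, 0.727 and 1.49 in control kidneys, so control kidney 11 had the only ratio above 1. The longest run of identical bases in the coding sequences of these paralogs was 20.

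The phosphate carrier Slc25a3, whose window is shown above, was at 201, 188 and 288 BPM in mutant kidneys and 265, 229 and 220.5 BPM in control kidneys, with overlap. The calcium-regulated ATP-Mg/phosphate carriers Slc25a23, Slc25a24 and Slc25a25 load adenine nucleotides into the matrix. Slc25a23 was at 76.4, 81.8 and 76.4 BPM in mutant kidneys and 76.5, 64.4 and 43.1 BPM in control kidneys (log2 fold change 0.38, SE 0.27, adjusted p = 0.896). Slc25a24 averaged 34.0 ± 11.0 BPM in mutant kidneys and 38.2 ± 9.22 BPM in control kidneys (SD, n = 3 each). Among 6 paralog pairs set against each other, only the ratio of Slc25a24 to Slc25a23 per kilobase had groups without overlap, at 0.366, 0.559 and 0.345 in mutant kidneys and 0.611, 0.570 and 0.667 in control kidneys. The pairs were chosen with the values known, and this ratio has no test. Slc25a25 had a log2 fold change of -0.38. Slc25a31, the germ cell ADP/ATP carrier, was at 0 in all libraries but control kidney 11, where it had 0.114 BPM.

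Carriers of cofactors and of nucleotides other than ATP numbered 9, all tested, with 2 fold changes above 0 and 7 below (median -0.27). Slc25a51 was at 247, 254 and 175 BPM in mutant kidneys 6, 8 and 9, against 205, 273 and 251 BPM in control kidneys 5, 7 and 11. Mutant kidney 9 alone was lower than every control kidney, and without it the log2 fold change of -0.12 turned to 0.05. Slc25a26, which brings S-adenosylmethionine, the methyl donor, into the matrix, was at 5.11, 7.85 and 7.67 BPM in mutant kidneys, against 13.5, 13.1 and 9.13 BPM in control kidneys. It was the only tested member whose mutant values all lay below the control values, and its log2 fold change was -0.72 (SE 0.54, limma adjusted p = 0.909). The gene spans chr6:94500331-94604672, and 144 of its exonic bases overlap Lrig1 on the other strand. Lrig1 was at 52.4, 48.4 and 54.1 BPM in mutant kidneys and 63.0, 54.6 and 64.6 BPM in control kidneys, also without overlap. Whether the authors assigned coverage by strand is not given in the sources used here, so coverage of Lrig1 in the overlap cannot be told apart from that of Slc25a26. Others had log2 fold changes of -0.68 for Slc25a33, a pyrimidine nucleotide carrier, -0.35 for Slc25a16, -0.27 for Slc25a42, a coenzyme A carrier, -0.16 for Slc25a17, 0.25 for Slc25a32, tied to folate and FAD, and 0.27 for Slc25a36, the other pyrimidine nucleotide carrier. The lowest adjusted p in the group was that of Slc25a26.

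**Figure D4:**
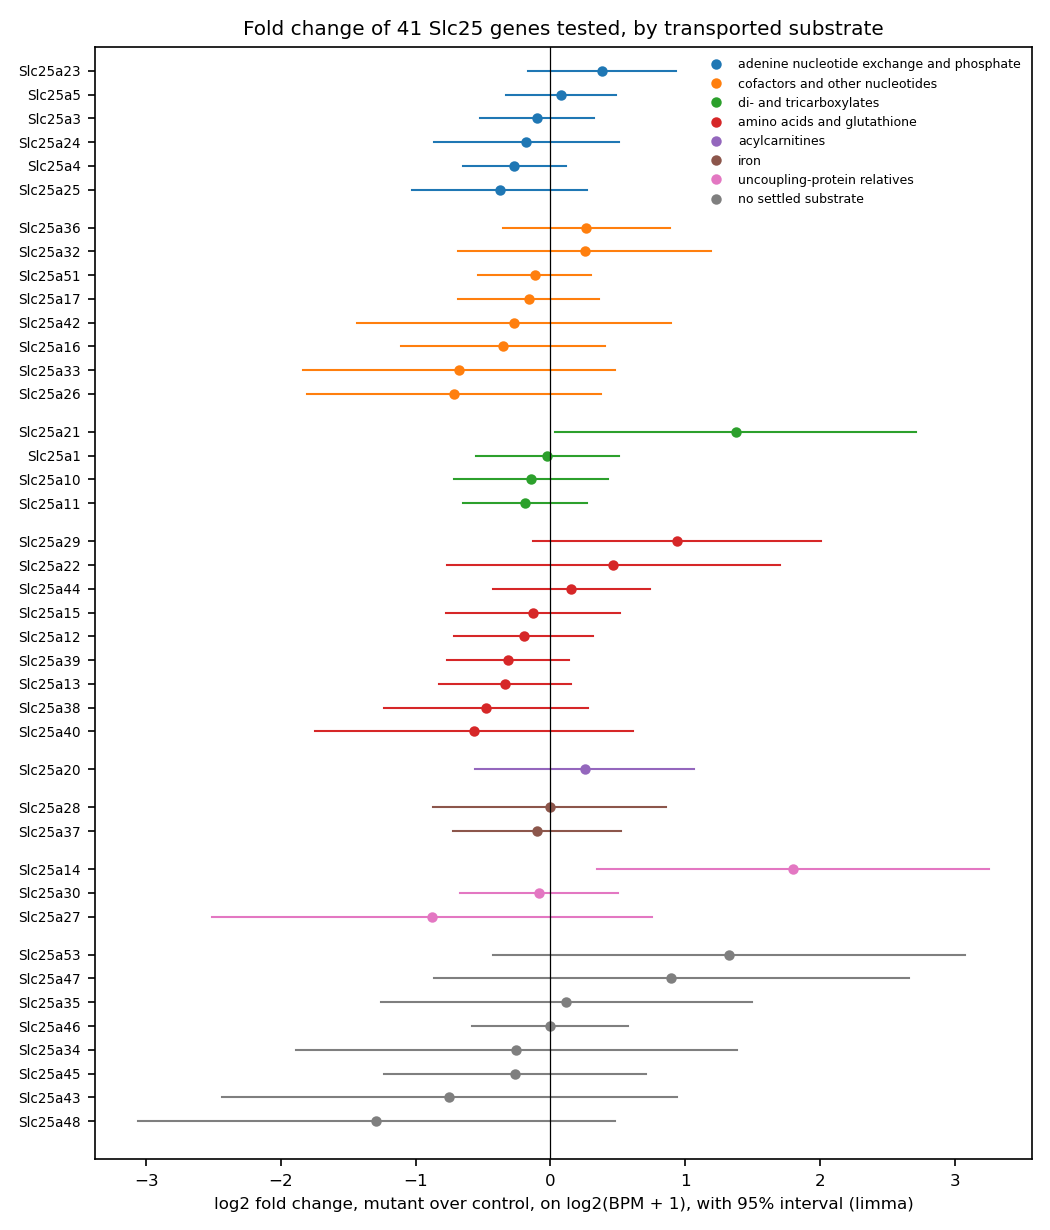
Log2 fold change of mutant over control kidneys on the log2(BPM + 1) scale for 41 of the 42 Slc25 genes tested, with 95% intervals from limma (n = 3 each), coloured and grouped by transported substrate. Intervals of Slc25a14 (0.35 to 3.26) and Slc25a21 (0.03 to 2.72) lie above 0, the other 39 drawn cross it, and intervals widen for genes with low levels.

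Among the 4 carriers of di- and tricarboxylates, which connect the citric acid cycle with the cytosol, 1 had a fold change above 0 and 3 below. Slc25a21 transports 2-oxoadipate, an intermediate of lysine and tryptophan breakdown. It was at 10.2, 11.1 and 5.32 BPM in mutant kidneys 6, 8 and 9, against 0.997, 4.08 and 3.87 BPM in control kidneys 5, 7 and 11. Every mutant kidney lay above every control kidney. The mean was 8.90 ± 3.13 BPM in mutant kidneys and 2.98 ± 1.72 BPM in control kidneys (SD, n = 3 each), and the log2 fold change was 1.38 (SE 0.66, limma adjusted p = 0.874). Slc25a21 is a long gene at chr12:56712634-57197472, and 189 of its exonic bases overlap Pax9 on the other strand, which was at 0 in all 6 libraries. Slc25a11 was at 124, 96.1 and 112 BPM in mutant kidneys, against 137, 113 and 128 BPM in control kidneys (log2 fold change -0.19, adjusted p = 0.934; -0.094 without mutant kidney 8). The citrate carrier Slc25a1 had a log2 fold change of -0.02 and Slc25a10 one of -0.14, with overlap in both.

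Amino acid and glutathione carriers form the largest substrate group, with 11 members, 9 of them tested, 3 with fold changes above 0 and 6 below (median -0.20). Their sum was 491.8, 489.3 and 419 BPM in mutant kidneys 6, 8 and 9, against 542, 501 and 577 BPM in control kidneys 5, 7 and 11. That is 86.4% of control without overlap, and Slc25a39, Slc25a13 and Slc25a12 make up most of it. The gap is narrow, from 491.8 BPM in mutant kidney 6 to 501 BPM in control kidney 7. It was not tested, and no share of such gaps over other gene sums stands beside it. In the sums of the other substrate groups, mutant and control kidneys overlapped. Slc25a39 was at 142, 136 and 137 BPM in mutant kidneys, against 161, 139 and 229 BPM in control kidneys. The mutant kidneys lay close together, and control kidney 11 was far above the other 5 libraries (log2 fold change -0.31, SE 0.22, adjusted p = 0.899; -0.11 without control kidney 11). Its paralog Slc25a40 averaged 8.08 ± 6.31 BPM in mutant kidneys and 10.6 ± 2.80 BPM in control kidneys (SD, n = 3 each). Citrin, encoded by Slc25a13, exports aspartate for the malate-aspartate shuttle and was at 102, 77.5 and 93.6 BPM in mutant kidneys, against 128, 129 and 90.5 BPM in control kidneys. Control kidney 11 was within the mutant range, and the log2 fold change was -0.34 (SE 0.24, limma adjusted p = 0.899). Slc25a12, the aspartate/glutamate carrier of brain and muscle, had a log2 fold change of -0.20.

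Slc25a29 carries basic amino acids such as arginine and lysine. It was at 14.2, 14.9 and 13.7 BPM in mutant kidneys 6, 8 and 9, against 10.8, 3.65 and 8.26 BPM in control kidneys 5, 7 and 11, so the groups did not overlap and the mutant kidneys were tightly grouped. The mean was 14.3 ± 0.584 BPM in mutant kidneys and 7.56 ± 3.60 BPM in control kidneys (SD, n = 3 each), with a log2 fold change of 0.94 (SE 0.53, limma adjusted p = 0.887). Slc25a47, a carrier gene of liver whose GENCODE span begins beyond the 162-base sequence shown above and whose RefSeq promoter window lies further on at chr12:108850879-108851128, was at 18.5, 3.62 and 0.266 BPM in mutant kidneys and 0, 3.78 and 2.69 BPM in control kidneys, with overlap. Only mutant kidney 6 was high. Slc25a2, an ornithine carrier, was listed at 0 in every mutant kidney, against 3.87, 1.44 and 0.308 BPM in control kidneys, and was too low to be tested. The main ornithine carrier of the urea cycle, Slc25a15, averaged 52.5 ± 21.02 BPM in mutant kidneys and 55.2 ± 14.5 BPM in control kidneys (SD, n = 3 each). Slc25a38, which supplies glycine for heme synthesis, had a log2 fold change of -0.48, Slc25a22, a glutamate carrier, one of 0.47 and Slc25a44, a carrier of branched-chain amino acids, one of 0.15. The other glutamate carrier, Slc25a18, had 0.0201 BPM in mutant kidney 9 and was at 0 elsewhere.

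Slc25a20 exchanges acylcarnitines for carnitine and so admits long-chain fatty acids to oxidation. It was at 20.3, 25.9 and 28.0 BPM in mutant kidneys 6, 8 and 9, against 13.1, 19.2 and 33.3 BPM in control kidneys 5, 7 and 11. The mutant values lay inside the control range (log2 fold change 0.25, 95% interval -0.56 to 1.07), and without control kidney 5 the sign turned. The iron importers are the mitoferrins Slc25a37, needed in red cell precursors, and Slc25a28, more widely expressed. Slc25a28 was at 38.4, 16.6 and 15.4 BPM in mutant kidneys, against 35.8, 20.7 and 13.4 BPM in control kidneys, where mutant kidney 6 and control kidney 5 were both high. Slc25a37 was at 69.9, 49.9 and 33.2 BPM in mutant kidneys, against 42.6, 49.8 and 67.8 BPM in control kidneys. Its log2 fold change was -0.10 (95% interval -0.72 to 0.52). Summed erythroid markers were 1590, 2878 and 2047 BPM in mutant kidneys and 1634, 1520 and 4016 BPM in control kidneys. The highest Slc25a37 level, in mutant kidney 6, stood beside the second lowest erythroid sum. Control kidney 11, close to it at 67.8 BPM, had the highest erythroid sum. The relation of Slc25a37 to the erythroid sum was not tested.

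The uncoupling-protein relatives gave the member with the lowest p. Slc25a14 (UCP5, or brain mitochondrial carrier protein 1) was at 7.69, 4.98 and 11.0 BPM in mutant kidneys 6, 8 and 9, against 0, 2.66 and 3.02 BPM in control kidneys 5, 7 and 11. Every mutant kidney lay above every control kidney. The mean was 7.89 ± 3.02 BPM in mutant kidneys and 1.89 ± 1.65 BPM in control kidneys (SD, n = 3 each), and the log2 fold change was 1.80 (SE 0.72, limma adjusted p = 0.854; exact permutation p = 0.1). The level is low. Averaged over the principal transcript of 1760 bases, depth was 4.74, 2.65 and 6.22 in mutant kidneys and 0, 1.86 and 2.12 in control kidneys. No other gene's exons overlap Slc25a14, which spans chrX:48623413-48662294 on the plus strand. Slc25a30, the kidney mitochondrial carrier, was far higher, at 58.5, 50.7 and 39.5 BPM in mutant kidneys and 49.3, 56.1 and 50.7 BPM in control kidneys. Its groups overlapped, and the log2 fold change was -0.09 (95% interval -0.67 to 0.50). Slc25a27 (UCP4) ranged from 0.0839 to 6.24 BPM in mutant kidneys and from 1.91 to 5.99 BPM in control kidneys. Among the uncoupling proteins outside the Slc25 symbols, Ucp1, of brown fat, was at 0 in all libraries, Ucp3 was at 0 in all but control kidney 11, and Ucp2 had a log2 fold change of -0.18, which turned to 0.039 without control kidney 11.

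**Figure D5:**
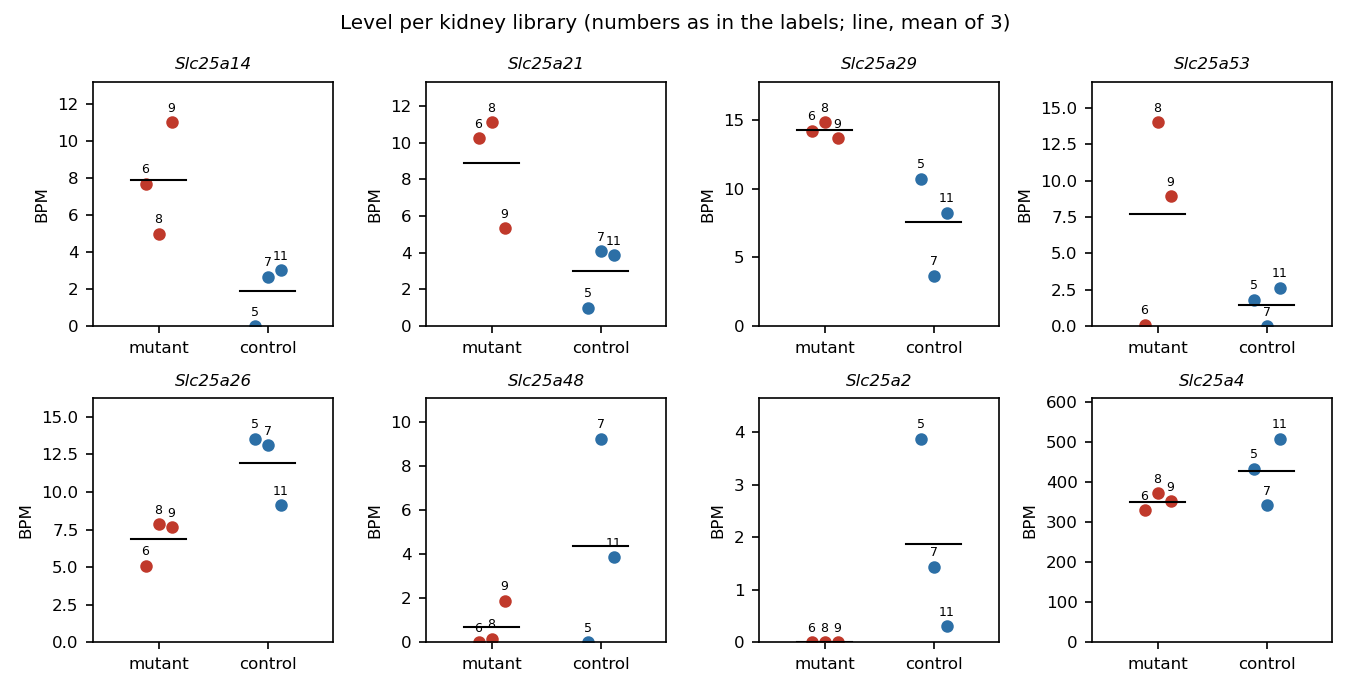
BPM of 8 Slc25 genes in each kidney library, mutant left of control, each point with its label number and a line at the mean of 3. Slc25a14, Slc25a21 and Slc25a29 had every mutant kidney above every control kidney, Slc25a26 and Slc25a2 had every mutant kidney below, and Slc25a53, Slc25a48 and Slc25a4 overlapped.

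Carriers with no settled substrate numbered 9, of which 8 were tested, 3 with fold changes above 0 and 5 below. Slc25a46, an outer-membrane member tied to mitochondrial fission and lipid transfer, was the highest of them per kilobase. It was at 67.5, 71.7 and 59.0 BPM in mutant kidneys 6, 8 and 9, against 77.9, 90.5 and 40.9 BPM in control kidneys 5, 7 and 11, all mutant kidneys lying inside the control range (log2 fold change -0.01). Slc25a53 was at 0.0719, 14.0 and 8.94 BPM in mutant kidneys, against 1.80, 0 and 2.62 BPM in control kidneys. Mutant kidneys 8 and 9 were high and mutant kidney 6 near 0 (log2 fold change 1.33, SE 0.86, limma adjusted p = 0.896). With 1 library left out, the log2 fold change ranged from 0.59 without mutant kidney 8 to 2.50 without mutant kidney 6. Slc25a48 was at 0, 0.168 and 1.89 BPM in mutant kidneys, against 0, 9.23 and 3.85 BPM in control kidneys. Both groups held a library at 0 (log2 fold change -1.29, SE 0.87, limma adjusted p = 0.896; -2.23 without control kidney 5). Slc25a54, which lies 6461 bases from Slc25a24 on chromosome 3, had 0.0178 BPM in control kidney 11 and 0 elsewhere. Of 1081 pairs of members, only Slc25a24 with Slc25a54 and Slc25a34 with Slc25a35 shared a run of 25 or more identical coding bases, so at that length the coding sequences are nearly all unique to 1 member. These are the shared bases, which show how short the stretches are, with none marked.
Slc25a24 and Slc25a54: aagaccatgagaagaaaatgaaatt
Slc25a34 and Slc25a35: gaactgcaggccccaggcacctacc

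The enzymes and proteins that work with the carriers showed no called gene either. Of 25 carrier partner enzymes tested, 7 had fold changes above 0 and 18 below, with a median of -0.14. The 3 with the lowest p were lower in mutant kidneys without overlap, beside 5.12% of all genes tested. They were picked by p, which favours groups without overlap, so this is only descriptive. Mdh2, the matrix malate dehydrogenase of the malate-aspartate shuttle, was at 112, 146 and 111 BPM in mutant kidneys and 178, 148 and 409.6 BPM in control kidneys (log2 fold change -0.85, limma adjusted p = 0.854). Control kidney 11 was far above the other libraries, and without it the log2 fold change of Mdh2 was -0.41. Slc22a5, the plasma membrane carnitine importer, was at 15.9, 28.7 and 32.0 BPM in mutant kidneys and 44.8, 49.6 and 40.05 BPM in control kidneys (log2 fold change -0.84, adjusted p = 0.854; -0.55 without mutant kidney 6). Cpt1b, which forms acylcarnitines for Slc25a20, was at 8.46, 13.2 and 9.54 BPM in mutant kidneys and 19.0, 22.4 and 22.4 BPM in control kidneys (log2 fold change -0.98, adjusted p = 0.863). Cpt1a, of the same list, was far higher, at 182, 192 and 225 BPM in mutant kidneys and 185, 210 and 173 BPM in control kidneys. Its groups overlapped, with a log2 fold change of 0.07, and Cpt2 had one of -0.04. The sum over the list was 3001, 3158 and 2903 BPM in mutant kidneys and 3237, 3356 and 3985 BPM in control kidneys, or 85.7% of control. Control kidney 11 supplied the highest sum.

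Other transport proteins of the mitochondrial membranes had 8 fold changes above 0 and 10 below among 18 tested. Vdac1, the outer-membrane channel through which carrier substrates pass, was at 223, 219 and 188 BPM in mutant kidneys and 251, 270.1 and 448 BPM in control kidneys (log2 fold change -0.57, limma adjusted p = 0.854; -0.31 without control kidney 11). Sfxn2, a sideroflexin, was at 17.5, 18.4 and 47.7 BPM in mutant kidneys and 67.5, 34.4 and 46.1 BPM in control kidneys, with overlap (log2 fold change -0.90, adjusted p = 0.854; -1.36 without mutant kidney 9). Abcb6, a porphyrin transporter, was at 16.0, 25.9 and 24.6 BPM in mutant kidneys and 35.4, 35.7 and 38.9 BPM in control kidneys, without overlap (log2 fold change -0.73, adjusted p = 0.879). Of the 12 genes that import and insert carriers into the inner membrane, 7 had fold changes above 0 and 5 below. Their sum was 638, 573 and 610 BPM in mutant kidneys 6, 8 and 9, against 659, 660 and 503 BPM in control kidneys 5, 7 and 11. The mutant mean was 99.9% of control, but every mutant kidney lay below control kidneys 5 and 7 and above control kidney 11. The lowest p among these 12 genes was that of Timm22, the insertion channel, with a log2 fold change of -0.51. Timm8a1 followed with 0.55 and Tomm20, a receptor of the outer membrane, with 0.28. With single libraries left out these ranged from -0.74 to -0.31 for Timm22, 0.15 to 1.04 for Timm8a1 and 0.11 to 0.36 for Tomm20. Of the 15 regulators of mitochondrial biogenesis, 10 were above 0 and 5 below. Tfb1m, a methyltransferase of mitochondrial ribosomal RNA, was at 30.5, 14.9 and 20.9 BPM in mutant kidneys and 11.4, 8.19 and 12.7 BPM in control kidneys (log2 fold change 0.94, limma adjusted p = 0.874). Nrf1 had a log2 fold change of 0.38 and Polrmt, the mitochondrial RNA polymerase, one of -0.35. The carrier-like genes Mtch1 and Mtch2 had log2 fold changes of 0.05 (-0.14 without control kidney 7) and 0.21 (0.052 without control kidney 11). The table held 0 genes of the mitochondrial genome itself, so the RNA that mitochondria make was not measured here.

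In the authors' deposited table, p-values from their own unadjusted comparison were below 0.05 for 4 of the 42 members tested here, or 9.52%, against 5.19% of the 13977 genes. In that deposited table by the authors, the ratio of mutant to control mean was 4.17 for Slc25a14 (p = 0.0392), 2.98 for Slc25a21 (p = 0.0455), 1.89 for Slc25a29 (p = 0.0334) and 0.577 for Slc25a26 (p = 0.0383), none from an exact test. These are the same 4 tested members whose groups did not overlap. Both measures come from the same 6 libraries, so the match is no independent evidence.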

How the data were processed

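Total RNA of kidneys at embryonic day 17 was sequenced after ribosomal RNA depletion on the Ion platform's total RNA kit, per the labels' protocols. The build mm10 and bedtools are named in the submitters' processing notes; the sources used here do not give the aligner, the annotation or the use of strand and introns. Per gene, the authors deposited a signal equal to 1 plus the covered bases, times a factor per library, as read from the values (100% of values whole after division by the column's smallest, tolerance 0.001). The ratio is the authors' mutant over control mean, and the deposited p-value is the authors' own, unadjusted.

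The factor was removed and covered bases were scaled to 1000000 per library (BPM). Genes reaching 1 BPM in 3 or more libraries were fitted on log2(BPM + 1) from the deposited values in limma 3.58.1 (R 4.3.3; trend and robust options, no covariate, two-sided, Benjamini-Hochberg adjustment at 0.05 over all genes); folds of low genes are understated. The fit was also tested on simulated data. Levels per kilobase use the principal transcript of GENCODE M21, in place of total exon length, because retained introns inflate the latter; that choice followed the values. Coordinates are mm10, from the same annotation, which held all 47 members.

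Members and lists were chosen with earlier results of these data known. Members named with each library's value are those with unadjusted p below 0.05, the 4 with the lowest p in each direction, those without overlap, and the highest per kilobase of each role, plus Slc25a37 and Slc25a4; of each list up to 3 genes with the lowest p are named. Slc25a3, Slc25a23, Slc25a47, Lrp2, Lrig1, Cpt1a, Cpt2 and members with single values were named outside that rule. The 16 alternatives covered scaling, filter, pseudocount, test options and libraries left out. The values of 1 member are not reported here, though it stays in all counts.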

Additional observations from a re-analysis of the deposited data

How the results depend on the processing

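No Slc25 gene was called under any of the 16 alternatives. The number of all genes called, 0 in the reported fit, was 1 with quantile normalization, 1 without the trend and robust options, 4 with sample weights, 22 without control 11 and mutant 6, and 0 to 8 when single libraries were left out (8 without control 11). The median log2 fold change of the members ranged from -0.22 to 0.054 over single libraries left out, above 0 only without mutant 9, and was -0.23 without control 11 and mutant 6. Mta2 kept its direction in all 16 (log2 fold change -0.55 to -0.33). So did Slc25a21 (0.80 to 1.70), Slc25a29 (0.55 to 1.22) and Slc25a26 (-0.88 to -0.51), and Slc25a14 did in the 15 that gave it a value (0.91 to 2.999). A minimum of 5 BPM left Slc25a14 and Slc25a53 without a value, and 5 alternatives left Slc25a48 without one. Members with an unadjusted p below 0.05 were Slc25a14 and Slc25a21 in the reported fit, 0 with a minimum of 5 BPM, and 4 without the trend and robust options, when Slc25a26 and Slc25a29 joined them. They were Slc25a14 alone without mutant 8, Slc25a21 and Slc25a47 without mutant 9, and Slc25a29 and Slc25a48 without control 5. Without mutant 6 they were Slc25a14 and Slc25a53. Slc25a4 joined Slc25a14 and Slc25a21 without control 7, and Slc25a13 joined Slc25a14 and Slc25a21 without control 11. Both Slc25a4 and Slc25a13 were lower in mutant kidneys there.

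The sign of 7 named members turned under some setting. With single libraries left out, the log2 fold change ranged from -0.21 to 0.066 for Slc25a30, -0.23 to 0.054 for Slc25a51, -0.045 to 0.59 for Slc25a20, -0.12 to 0.24 for Slc25a5, -0.41 to 0.35 for Slc25a28, -0.35 to 0.22 for Slc25a46 and -0.36 to 0.17 for Slc25a37. Slc25a5 was also at -0.0092 with sample weights and at -0.18 without control 11 and mutant 6. The cause was not tested. The adjusted p of these 7 was 0.863 or more throughout.

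No paired analysis was possible because the label numbers are not shared between the groups. Read numbers are unknown, so the counting error of members with a few BPM is unknown too.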
